A study of Mus musculus with 4 samples.

Results

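Interferon receptors, the factors that carry their signal and the genes that interferon induces were followed in microglia, the resident macrophages of the brain, in mouse embryonic cortex (E16). The 41 genes were taken by symbol from 21981 genes in the deposited tables. All 41 had a row for every library. Of these, 38 had enough reads to be tested, and Isg20, Isg15 and Ifi27l2a did not. The libraries named cKO 2 and cKO 5 came from untreated mice labelled Bach1 cKO, a conditional knockout whose series text names a Cx3 driver. The libraries named control 1 and control 6 came from untreated mice labelled Bach1 fl/fl, which carry the floxed allele. Bach1 encodes a heme-binding repressor of antioxidant genes, and the comparison asks which microglial genes respond to its loss. Which Cx3 line drove the deletion, whether the cKO animals had 2 floxed alleles, how the cells were isolated and whether each library came from 1 animal are not stated in the labels, so p-values measure only the spread between these 4 samples. The series text speaks of triplicates, and 2 libraries per genotype were analysed here.

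Type I interferons signal through a receptor built from IFNAR1 and IFNAR2, and interferon gamma through one built from IFNGR1 and IFNGR2. Janus kinases at these receptors phosphorylate STAT proteins. STAT2 and IRF9 act in a complex that binds the interferon-stimulated response element (ISRE), while STAT dimers bind the gamma-activated site (GAS). The induced genes encode RNA sensors, antiviral enzymes, membrane restriction factors and large GTPases, and microglia are known to express the receptors and to respond to interferon.

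The sequences that these factors bind are shown here as background on the pathway. The genes were chosen as pathway or induced genes, so the shares below describe the list and test nothing. RefSeq promoter windows (GRCm38.p6, 250 bases before to 50 bases after a start site) were matched for 35 of the 41 genes. The ISRE letters, GAAA and GAAA parted by 2 bases of any kind and read on both strands, were found for 18 of these 35 genes (51.4%), against 3.99% of 27025 genes with such windows. The GAS letters TTCNNNGAA, which read the same on both strands, were found for 12 of 35 (34.3%), against 9.55% of all. Matches of the ISRE and GAS letters could overlap. None of the 4 receptor genes held the ISRE letters in this window, and neither did the induced genes Ifi30, Ifi35, Ifi44 and Xaf1. All 3 membrane restriction factor genes held them, as did 4 of the 5 GTPase genes and 2 of the 6 transcription factor genes. They were also found for 2 RNA sensor genes, 3 RNA-activated enzyme genes and 4 genes of the antiviral effectors and ISG15 system. The lines below give 60 bases around a match for genes whose values are described later, 5′ to 3′ on the gene's own strand, with the matched letters in capitals. The capitals mark letters found by search and not a measured binding site. In each line 1 match is marked, and other matches may stand in small letters.
Ifit1 (ISRE, chr19:34640760-34640819, gene on the plus strand, match starting at −104 from the start site): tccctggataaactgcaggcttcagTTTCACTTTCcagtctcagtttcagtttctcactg
Ifit3 (ISRE, chr19:34583348-34583407, gene on the plus strand, match starting at −156 from the start site): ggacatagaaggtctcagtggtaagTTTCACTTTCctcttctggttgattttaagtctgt
Isg15 (ISRE, chr4:156200856-156200915, gene on the minus strand, match starting at −72 from the start site): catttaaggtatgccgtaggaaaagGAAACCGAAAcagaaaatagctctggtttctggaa
Rsad2 (ISRE, chr12:26456538-26456597, gene on the minus strand, match starting at −120 from the start site): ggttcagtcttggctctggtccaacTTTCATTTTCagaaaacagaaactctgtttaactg
Bst2 (ISRE, chr8:71537568-71537627, gene on the minus strand, match starting at −130 from the start site): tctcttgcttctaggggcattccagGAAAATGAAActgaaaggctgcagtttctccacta
Igtp (ISRE, chr11:58199496-58199555, gene on the plus strand, match starting at −34 from the start site): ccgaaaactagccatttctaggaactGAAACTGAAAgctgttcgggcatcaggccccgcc
Oas3 (ISRE, chr5:120777700-120777759, gene on the minus strand, match starting at −75 from the start site): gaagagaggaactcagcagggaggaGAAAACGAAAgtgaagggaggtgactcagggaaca
Stat2 (ISRE, chr10:128270251-128270310, gene on the plus strand, match starting at −222 from the start site): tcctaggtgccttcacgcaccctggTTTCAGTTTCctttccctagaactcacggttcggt
Irf1 (GAS, chr11:53769899-53769958, gene on the plus strand, match starting at −90 from the start site): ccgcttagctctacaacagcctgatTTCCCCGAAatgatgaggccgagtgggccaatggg
Ifnar2 (GAS, chr16:91372544-91372603, gene on the plus strand, match starting at −214 from the start site): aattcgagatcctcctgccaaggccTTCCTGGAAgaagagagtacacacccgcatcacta

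Library totals ran from 17233115 to 19305078 reads, and 3 reads corresponded to between 0.155 and 0.174 CPM (reads of a gene scaled to the library total), a floor that covers counting error only. The targeted gene Bach1 gave 29.98 and 35.4 CPM (cKO 2, cKO 5), against 45.8 and 21.6 CPM (control 1, control 6), and a count over the whole gene does not check a deletion of some exons. Directions for cKO therefore rest on the labels. Microglial markers were present in all 4 libraries, with none of the 20 at 0. Their summed level was 10883 and 42107 CPM (cKO 2, cKO 5), against 29873 and 47007 CPM (control 1, control 6). The 15 excitatory neuron markers summed to 5142 and 432 CPM (cKO 2, cKO 5), against 1480.01 and 467 CPM (control 1, control 6). The 12 endothelial markers summed to 4434 and 856 CPM (cKO 2, cKO 5), against 5959 and 1292 CPM (control 1, control 6). cKO 2 thus stood apart, with the lowest microglial and the highest neuronal levels. The median fold change, the count of separated genes and the medians of the other interferon lists are therefore also given without it. In bulk RNA, fewer cells of a type and less RNA per cell cannot be told apart.

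The receptor genes were the most abundant class of the pathway, and induced antiviral genes were among the least. To compare genes, CPM was divided by exon length to give RPKM, averaged over the 4 libraries. Ifngr1 had 463 RPKM, above 99.4% of the genes tested. Bst2 followed at 74.7 RPKM, Ifngr2 at 66.3 RPKM and Ifnar2 at 24.9 RPKM. By class, the median was 45.6 RPKM for receptors, 21.8 RPKM for membrane restriction factors, 7.19 RPKM for transcription factors and 5.20 RPKM for GTPases. It was 2.78 RPKM for RNA sensors, 1.16 RPKM for the other induced genes, 0.813 RPKM for antiviral effectors with the ISG15 system and 0.473 RPKM for RNA-activated enzymes. The lowest gene was Oas3 at 0.0823 RPKM, and Isg15, a hallmark gene of the interferon response, had 0.647 RPKM, above 16.6% of the genes tested. Of 11 interferon ligand genes searched, 1 had a row, Ifnk, with 0 reads in either cKO library and 9 reads in control 1.

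**Figure D1:**
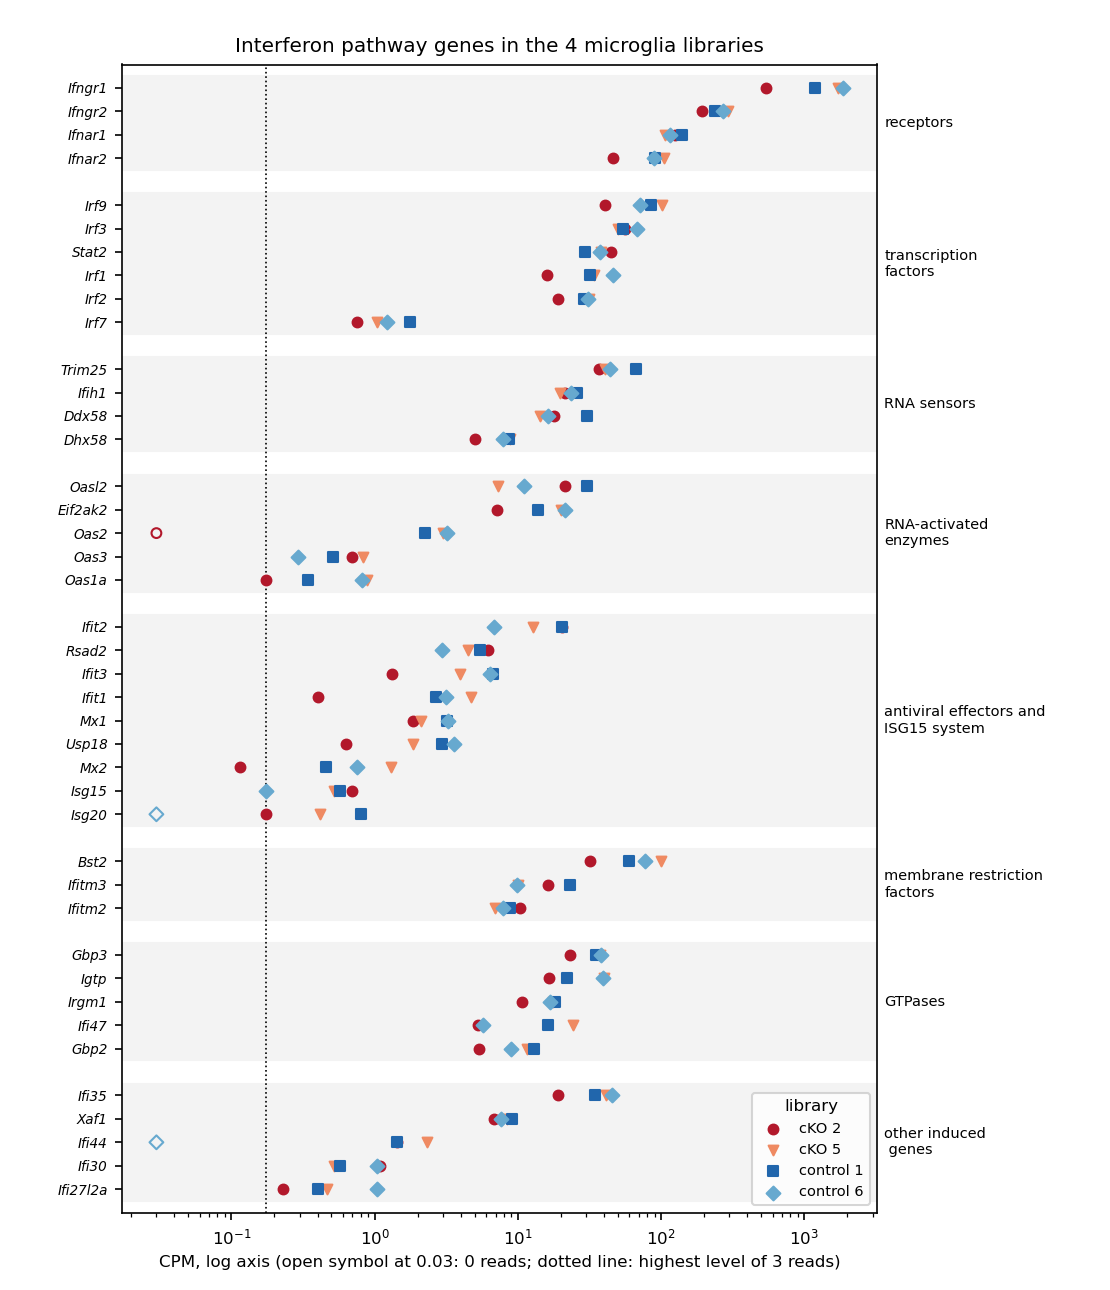
CPM of the 41 interferon genes in cKO 2, cKO 5, control 1 and control 6, on a log axis and grouped by role; each symbol is 1 library, and open symbols stand for 0 reads. Receptors sit at the high end, cKO 2 is at the left of many rows, and the genotypes interleave in most of them.

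No interferon gene showed a genotype difference that passed the test. In edgeR's quasi-likelihood test over 15951 genes, 0 of the 38 tested interferon genes were higher and 0 lower in cKO at an adjusted p under 0.05 (adjusted p = 0.9997 for each). Over all genes the share called was 0% in each direction. None of the 38 had an unadjusted p under 0.05 in edgeR, DESeq2 or limma-voom, against 0.307% of all genes in edgeR, and the smallest was 0.189, for Trim25. Log2 fold changes ran from −1.39 to 1.44, with a median of −0.28 beside 0.03 over all genes tested. Values were negative for 31 of 38 genes (81.6%), against 47.2% of all genes. With libraries scaled on the microglial markers, which moved the median of all genes to 1.14, the median was 0.47 and 4 of 38 values were negative. Relative to the median of all genes, 31 of 38 were below it under either scaling. Without cKO 2 the median was 0.19 and 15 of 41 genes lay below the median of all genes. The median was −0.96 without cKO 5, −0.32 without control 1 and −0.17 without control 6.

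**Figure D2:**
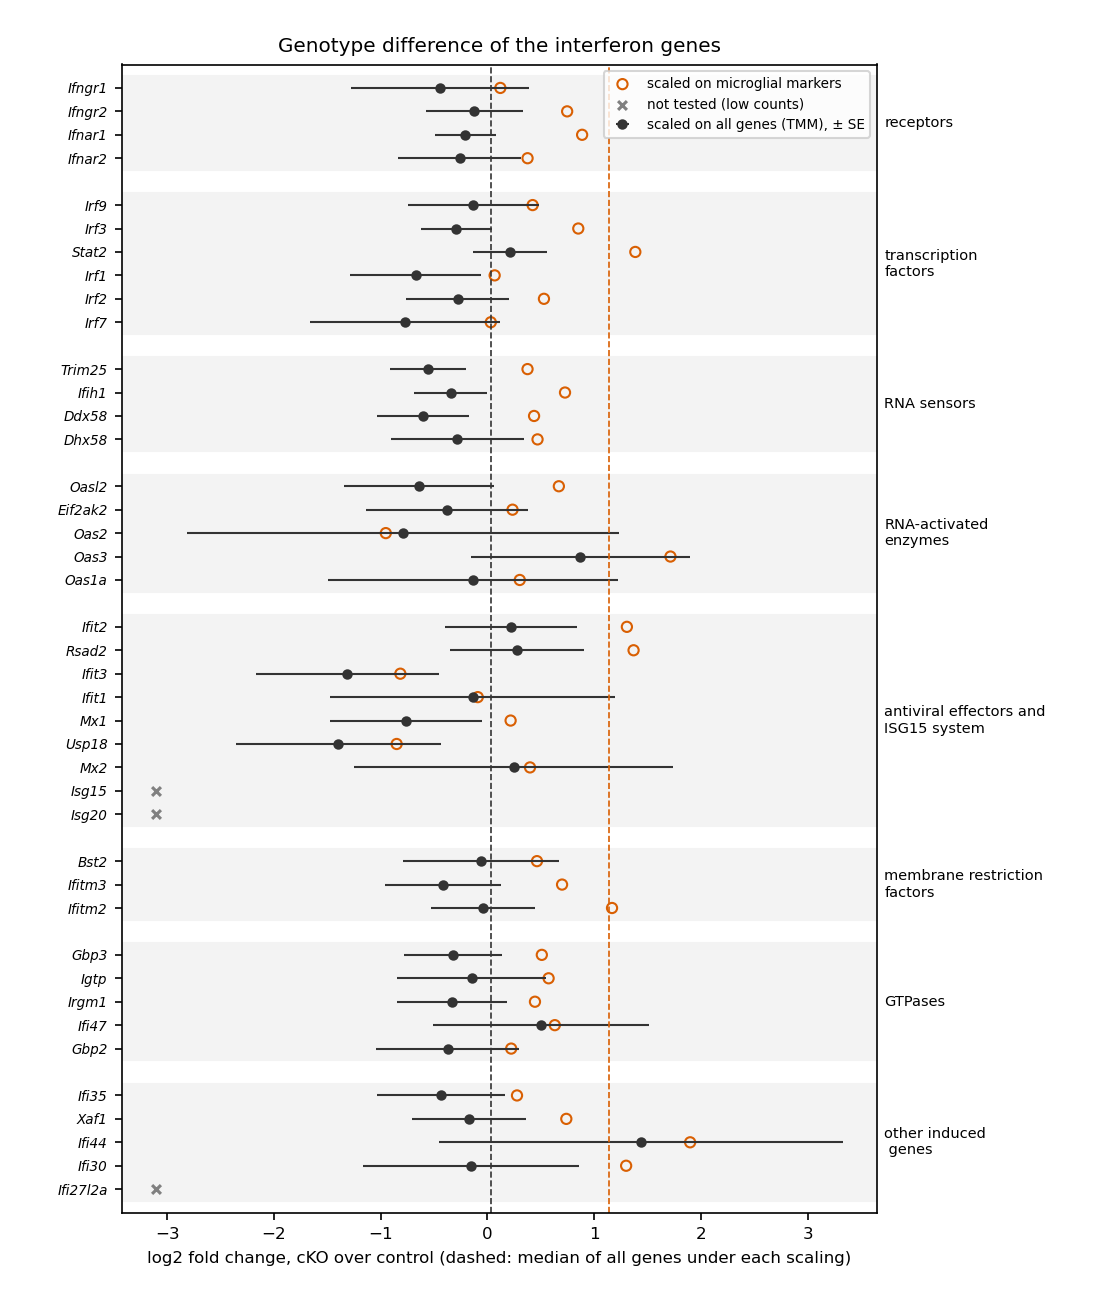
Log2 fold change of each tested interferon gene, cKO over control; filled points with bars are edgeR estimates ± SE with TMM scaling and open circles are the values scaled on microglial markers. Dashed lines are the medians of all genes, 0.03 and 1.14; most genes lie left of the line of their own scaling.

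In 8 of the 38 tested genes (21.1%) both cKO values lay below both control values on TMM-scaled CPM, against 7.64% of all genes tested. Both lay above in 1 gene (2.63%), against 8.33% of all genes. These counts are a description, since 2 against 2 libraries cannot go below p = 0.333 in a two-sided exact permutation test. With microglial marker scaling, both cKO values lay below in 2 genes, Usp18 and Ifit3, against 1.24% of all genes, and above in 6, so that the groups did not overlap in 8 of 38 genes, against 13.3% of all genes in either direction. The 8 genes below with TMM scaling were Ifnar1, Irf7, Ifih1, Ddx58, Trim25, Ifit3, Mx1 and Usp18, and the gene above was Oas3. Without cKO 2, where 1 library stands for cKO, 10 of 41 genes lay below and 18 above, in a fit where 66.1% of all genes did not overlap. The difference between the cKO libraries was larger than that between the genotypes for 27 of the 38 genes (71.1%), as it was for 82.6% of all genes. On the log2(TMM-scaled CPM + 0.5) scale, the median absolute gap was 1.03 between the cKO libraries and 0.45 between the controls. The median absolute genotype difference was 0.37. A gap between single libraries varies more than a difference between means of 2 libraries, so these measures are unlike.

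The interferon gamma receptor genes varied with the library more than with the genotype. Ifngr1 (ENSMUSG00000020009, chromosome 10, 19591949 to 19610229, GRCm38 coordinates as for all genes here), which encodes the ligand-binding chain, had 539 and 1707 CPM (cKO 2, cKO 5), against 1179 and 1850.2 CPM (control 1, control 6). The means were 1123 ± 826 CPM in cKO and 1514 ± 475 CPM in control (SD, n = 2 each), and the log2 fold change was −0.44 ± 0.84 (SE; adjusted p = 0.9997 in edgeR). Its cKO values stood on either side of control 1 and both lay below control 6, in the order of the summed microglial markers. Divided by the microglial marker factor, Ifngr1 was at 1317 and 1169 in the cKO libraries, against 1128 and 1156 in the controls (CPM), a coefficient of variation of 7.09% over the 4 libraries against 51.9% with TMM scaling. Without cKO 2 its log2 fold change was 0.26, without cKO 5 −1.76 and without control 6 0.03. Ifngr2 (ENSMUSG00000022965, chromosome 16, 91547072 to 91565169), the signal-transducing chain, had 193 and 293 CPM (cKO 2, cKO 5), against 239.7 and 273 CPM (control 1, control 6), a log2 fold change of −0.12 ± 0.46 (edgeR). Its 4 values in CPM spread far less than those of Ifngr1, with cKO 2 lowest and cKO 5 highest. Unlike for Ifngr1, microglial marker scaling raised its coefficient of variation, to 51.3% from 26.9% with TMM scaling.

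The type I receptor chains behaved differently from each other across libraries. Ifnar1 (ENSMUSG00000022967, chromosome 16, 91485238 to 91507441) had 126 and 107 CPM (cKO 2, cKO 5), against 140.0 and 115 CPM (control 1, control 6). Its cKO 2 value lay between those of the controls in CPM, and TMM scaling, which lowers cKO 2, put both cKO libraries below both controls. Ifnar2 (ENSMUSG00000022971, chromosome 16, 91372783 to 91405589), whose chain binds type I interferon with high affinity, had 46.2 and 105 CPM (cKO 2, cKO 5), against 90.1 and 89.9 CPM (control 1, control 6). Here cKO 2 was lowest by far, and the other 3 libraries were close together. Ifnar1, Ifnar2 and Ifngr2 lie on chromosome 16, as does Bach1, and the start of Ifnar1 is 3.79 Mb from that of Bach1.

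Among the signal-carrying factors, Irf9 and Stat2, partners in the ISRE-binding complex, were well detected in each library. Irf9 (ENSMUSG00000002325, chromosome 14, 55603571 to 55610030), the DNA-binding subunit, had 40.8 and 102 CPM (cKO 2, cKO 5), against 85.2 and 71.7 CPM (control 1, control 6), a log2 fold change of −0.13 ± 0.61 (edgeR). The cKO libraries held both its lowest and its highest value. Stat2 (ENSMUSG00000040033, chromosome 10, 128270559 to 128292849) had 44.7 and 38.2 CPM (cKO 2, cKO 5), against 29.6 and 37.4 CPM (control 1, control 6). The cKO values were the highest in CPM, while on TMM-scaled CPM cKO 2 lay between the controls and the groups overlapped.

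The other IRF genes ranged from Irf7, above 7.71% of the genes tested by RPKM, to Irf3, above 80.2%. Irf3 (ENSMUSG00000003184, chromosome 7, 44997648 to 45002848), the factor that turns on type I interferon genes after viral RNA is sensed, had 55.6 and 50.3 CPM (cKO 2, cKO 5), against 54.4 and 67.5 CPM (control 1, control 6). Its means were 53.0 ± 3.69 CPM in cKO and 61.0 ± 9.23 CPM in control (SD, n = 2 each), and the log2 fold change was −0.29 ± 0.33 (adjusted p = 0.9997 in edgeR), or −0.03 without control 6 and −0.52 without control 1. Irf1, an activator induced by interferon gamma, had 15.9 and 34.1 CPM (cKO 2, cKO 5), against 31.9 and 46.2 CPM (control 1, control 6). Irf2, which antagonises IRF1, had 18.9 and 31.6 CPM (cKO 2, cKO 5), against 29.0 and 30.8 CPM (control 1, control 6). For both, cKO 2 was lowest and cKO 5 lay near or among the controls. Irf7, the induced factor that amplifies the type I response, had 13 and 20 reads in the cKO libraries, against 31 and 21 reads in the controls. Both cKO values were below both controls, and the nearest libraries, cKO 5 and control 6, differed by a single read.

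Of the 4 RNA sensor genes, 3 had both cKO libraries below both controls on TMM-scaled CPM, against 7.64% of all genes, and none passed the threshold. With microglial marker scaling none of the 3 was separated. Trim25 (ENSMUSG00000000275, chromosome 11, 88999376 to 89020293), a ubiquitin ligase that activates RIG-I, had 37.1 and 40.5 CPM (cKO 2, cKO 5), against 66.5 and 43.9 CPM (control 1, control 6). Its means were 38.8 ± 2.42 CPM in cKO and 55.2 ± 16.0 CPM in control (SD, n = 2 each), with a log2 fold change of −0.56 ± 0.36 (adjusted p = 0.9997 in edgeR). Control 1 was highest and the other 3 libraries were close, so the separation rested on a small gap to control 6. Ifih1 (ENSMUSG00000026896, chromosome 2, 62595798 to 62646255), the MDA5 sensor of long double-stranded RNA, had 21.3 and 19.8 CPM (cKO 2, cKO 5), against 25.8 and 23.7 CPM (control 1, control 6), a log2 fold change of −0.34 ± 0.34 (edgeR). All 4 values lay in a narrow band. Ddx58, the RIG-I sensor, had 17.9 and 14.3 CPM (cKO 2, cKO 5), against 30.6 and 16.2 CPM (control 1, control 6), and Dhx58, the LGP2 regulator of these sensors, had 5.03 and 8.75 CPM (cKO 2, cKO 5), against 8.64 and 7.83 CPM (control 1, control 6). Ddx58 was highest in control 1 alone, whereas Dhx58 was lowest in cKO 2 alone.

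The RNA-activated enzymes followed unlike orders over the libraries. Oasl2 (ENSMUSG00000029561, chromosome 5, 114896936 to 114912234), a 2′-5′ oligoadenylate synthetase-like gene, had 21.4 and 7.30 CPM (cKO 2, cKO 5), against 30.3 and 11.1 CPM (control 1, control 6). It was highest in control 1 and cKO 2, and its log2 fold change was −0.64 ± 0.70 (adjusted p = 0.9997 in edgeR). These libraries had the most endothelial and pericyte marker RNA, and also the most excitatory neuron, radial glia and erythroid marker RNA. The source of the Oasl2 reads was not tested. Eif2ak2 (ENSMUSG00000024079, chromosome 17, 78852564 to 78882573), the kinase PKR that halts translation on sensing double-stranded RNA, had 7.11 and 20.05 CPM (cKO 2, cKO 5), against 13.7 and 21.2 CPM (control 1, control 6). Here cKO 2 and control 1 were the lowest libraries, with a log2 fold change of −0.38 ± 0.76 (edgeR). On microglial marker scaling Eif2ak2 was at 17.4 and 13.7 in the cKO libraries, against 13.1 and 13.2 in the controls (CPM). Its coefficient of variation was 13.99%, against 49.1% with TMM scaling. That of Oasl2 went the other way, with 95.1% on microglial marker scaling against 54.8% with TMM scaling.

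The synthetases that produce 2′-5′ oligoadenylate, which activates RNase L, gave few reads. Oas3 was the gene above both controls, with 12 and 16 reads in the cKO libraries, against 9 and 5 reads in the controls and a log2 fold change of 0.87 ± 1.02 (adjusted p = 0.9997 in edgeR). Its groups were separated by few reads. Oas2 had 0 and 58 reads in the cKO libraries, against 39 and 55 reads in the controls, and 3 reads in cKO 2 would be 0.173 CPM. Oas1a had 3 and 17 reads in the cKO libraries, against 6 and 14 reads in the controls, and it has near-identical neighbours whose reads may be split. For Oas1a and Oas2 cKO 2 was lowest, and the cKO libraries lay on both sides of at least 1 control.

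Antiviral effectors ranged from Mx2, above 3.20% of the genes tested by RPKM, to Ifit2, above 49.5%. Ifit2 (ENSMUSG00000045932, chromosome 19, 34550694 to 34576419), which binds viral RNA with its IFIT partners, had 20.5 and 12.7 CPM (cKO 2, cKO 5), against 20.3 and 6.85 CPM (control 1, control 6). Its log2 fold change was 0.22 ± 0.62 (adjusted p = 0.9997 in edgeR), and cKO 2 and control 1 were nearly equal and highest. Rsad2 (ENSMUSG00000020641, chromosome 12, 26442746 to 26456452), the viperin enzyme that makes a chain-terminating nucleotide, had 6.24 and 4.45 CPM (cKO 2, cKO 5), against 5.44 and 2.96 CPM (control 1, control 6), a log2 fold change of 0.28 ± 0.63 (edgeR). Both Ifit2 and Rsad2 changed sign without control 6, to −0.32 and −0.038.

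Ifit1 and Ifit3, neighbours of Ifit2 on chromosome 19, did not share its order. Ifit1 had 7 and 91 reads in the cKO libraries, against 47 and 54 reads in the controls, with cKO 2 far below the other 3. Ifit3 had 23 and 76 reads in the cKO libraries, against 118 and 110 reads in the controls, with both cKO libraries below both controls. The log2 fold change of Ifit3 was −1.31 ± 0.86 (adjusted p = 0.9997 in edgeR; singled out after its values were seen), and it was −0.81 with microglial marker scaling, −0.63 without cKO 2 and −2.55 without cKO 5. Both genes have related family members beside them, so reads may be split, which was not tested.

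Usp18 (ENSMUSG00000030107, chromosome 6, 121245906 to 121270917), which removes ISG15 from proteins and silences the type I receptor, had 11 and 36 reads in the cKO libraries, against 52 and 62 reads in the controls. Its means were 1.25 ± 0.869 CPM in cKO and 3.29 ± 0.440 CPM in control (SD, n = 2 each), and its log2 fold change of −1.39 ± 0.96 was the lowest of the tested genes (adjusted p = 0.9997 in edgeR; singled out after its values were seen). It was −0.85 with microglial marker scaling, −0.72 without cKO 2 and −2.61 without cKO 5. cKO 2 held the lowest value and cKO 5 lay between it and the controls.

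The remaining effectors gave few reads. Mx1, a dynamin-like GTPase gene that is defective in many laboratory strains, had 32 and 41 reads in the cKO libraries, against 56 and 56 reads in the controls. Mx2, annotated as a polymorphic pseudogene, had 2 and 25 reads in the cKO libraries, against 8 and 13 reads in the controls. Isg15, the ubiquitin-like modifier, had 12 and 10 reads in the cKO libraries, against 10 and 3 reads in the controls, and Isg20, an exonuclease, had 3 and 8 reads in the cKO libraries, against 14 and 0 reads in the controls. Isg15 and Isg20 had too few reads to be tested. In all, 4 of the 41 genes had 3 reads or fewer in cKO 2 and 3 genes in control 6.

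The membrane restriction factor genes followed unlike orders. Bst2 (ENSMUSG00000046718, chromosome 8, 71534255 to 71537456), the tetherin that holds budding virus at the cell surface, had 31.8 and 100.3 CPM (cKO 2, cKO 5), against 60.04 and 77.6 CPM (control 1, control 6). Its means were 66.0 ± 48.4 CPM in cKO and 68.8 ± 12.4 CPM in control (SD, n = 2 each), with a log2 fold change of −0.06 ± 0.73 (adjusted p = 0.9997 in edgeR). The cKO libraries were its lowest and its highest. Ifitm3 (ENSMUSG00000025492, chromosome 7, 141009586 to 141010770), which blocks virus fusion in endosomes, had 16.1 and 9.997 CPM (cKO 2, cKO 5), against 23.2 and 9.86 CPM (control 1, control 6), a log2 fold change of −0.42 ± 0.55 (edgeR). Control 1 and cKO 2 were highest, and cKO 5 and control 6 were nearly equal. Ifitm2, its close paralog, had 10.4 and 6.94 CPM (cKO 2, cKO 5), against 8.87 and 7.83 CPM (control 1, control 6), the tightest set of values among the 41 genes after TMM scaling (coefficient of variation 7.53%). Exons of another gene on the same strand cover 40.9% of the Ifitm2 exons, and the pair is near-identical, so their counts are uncertain.

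**Figure D3:**
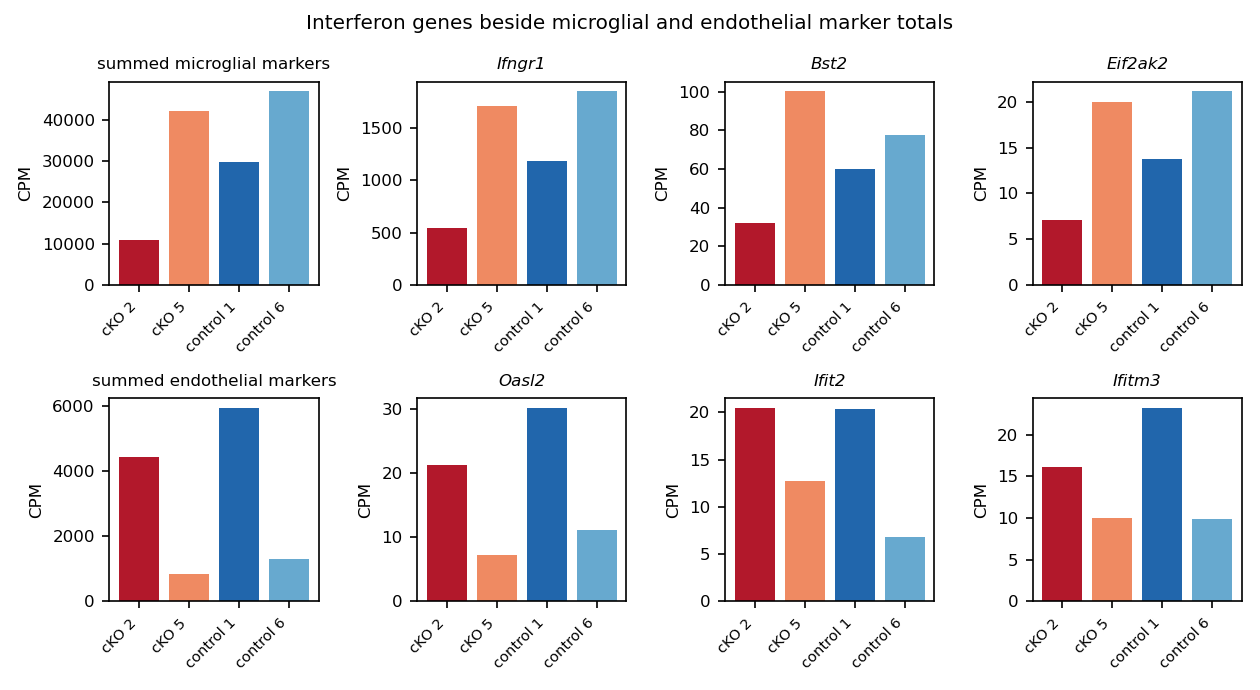
CPM per library (bars from 0) of Ifngr1, Bst2 and Eif2ak2 beside the summed microglial markers, and of Oasl2, Ifit2 and Ifitm3 beside the summed endothelial markers. These 6 genes were chosen after their values were seen. In the upper row cKO 2 is lowest and control 1 next. In the lower row cKO 2 and control 1 are the 2 highest, as they also are for summed excitatory neuron, radial glia and erythroid markers (not drawn).

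On TMM-scaled CPM, cKO 2 and control 1 were both below the other libraries in 18 of the 38 tested genes (47.4%), against 30.2% of all genes tested. They were both above in 5 genes (13.2%), Oasl2, Ifit2, Rsad2, Ifitm2 and Ifitm3, against 34.4% of all genes. cKO 2 was the lowest library for 28 of 38 genes (73.7%), against 33.3% of all genes and 20 of 20 microglial markers. Scaling on the microglial markers lowered the coefficient of variation of 16 of the 38 genes (42.1%), against 17.0% of all genes. The part of cell composition in these orders was not tested.

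All 5 interferon-inducible GTPase genes were lowest in cKO 2. Igtp (ENSMUSG00000078853, chromosome 11, 58199556 to 58207591), a GTPase that acts on pathogen vacuoles, had 16.6 and 39.9 CPM (cKO 2, cKO 5), against 22.1 and 39.2 CPM (control 1, control 6), a log2 fold change of −0.15 ± 0.70 (adjusted p = 0.9997 in edgeR). Gbp3 (ENSMUSG00000028268, chromosome 3, 142560026 to 142573209), a guanylate-binding protein gene, had 23.3 and 37.3 CPM (cKO 2, cKO 5), against 35.4 and 38.4 CPM (control 1, control 6), a log2 fold change of −0.32 ± 0.46 (edgeR). In each gene cKO 5 was at the level of control 6. Irgm1, which regulates the other immunity-related GTPases, had 10.6 and 17.7 CPM (cKO 2, cKO 5), against 18.3 and 16.7 CPM (control 1, control 6), and Gbp2 had 5.37 and 11.6 CPM (cKO 2, cKO 5), against 12.9 and 8.99 CPM (control 1, control 6). Ifi47 was high in 1 library of each genotype, with 5.26 and 24.3 CPM (cKO 2, cKO 5), against 16.1 and 5.74 CPM (control 1, control 6). The guanylate-binding genes are a family of close copies, and Igtp shares 8.01% of its exon bases with Irgm2, so reads may be split.

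Of the other induced genes, Ifi35 and Xaf1 were the most abundant. Ifi35 (ENSMUSG00000010358, chromosome 11, 101448407 to 101458698), an interferon-induced leucine zipper protein gene, had 18.9 and 41.2 CPM (cKO 2, cKO 5), against 34.7 and 45.2 CPM (control 1, control 6), a log2 fold change of −0.43 ± 0.60 (adjusted p = 0.9997 in edgeR). cKO 2 was lowest and cKO 5 lay between the controls. Xaf1 (ENSMUSG00000040483, chromosome 11, 72301629 to 72313733), an antagonist of the apoptosis inhibitor XIAP, had 6.82 and 8.44 CPM (cKO 2, cKO 5), against 9.04 and 7.60 CPM (control 1, control 6), a log2 fold change of −0.17 ± 0.53 (edgeR), with all values in a narrow range. Ifi44 had 25 and 45 reads in the cKO libraries, against 25 and 0 reads in the controls, Ifi27l2a had 4 and 9 reads in the cKO libraries, against 7 and 18 reads in the controls and Ifi30, the lysosomal thiol reductase gene, had 19 and 10 reads in the cKO libraries, against 10 and 18 reads in the controls. Ifi30 is annotated as a processed transcript, and 14 of the 41 genes shared exon bases with another annotated gene, so without a stated strand setting reads of such pairs cannot be told apart.

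No further gene of the pathway passed the test. Of 14 signalling genes, 13 were tested, 0 passed in either direction (edgeR), and all 13 values were negative with a median log2 fold change of −0.41. All 20 microglial markers were negative as well, with a median of −0.48, against 47.2% of all genes, and their part in the lists' values was not tested. Without cKO 2 the medians were 0.09 for the signalling genes and 0.26 for the microglial markers, and with microglial marker scaling the signalling median was 0.46 beside 1.14 for all genes. The most abundant, Irf8, a lineage factor of microglia, had 161 and 608 CPM (cKO 2, cKO 5), against 444 and 647 CPM (control 1, control 6), and Socs3, a feedback inhibitor of cytokine signalling, with the smallest unadjusted p of the list, had 31.8 and 26.1 CPM (cKO 2, cKO 5), against 42.0 and 35.6 CPM (control 1, control 6). Of 16 sensing and adaptor genes upstream of interferon, 15 were tested and 0 passed (edgeR), with 12 negative and a median of −0.21, or 0.25 without cKO 2. Tlr7, the endosomal sensor of single-stranded RNA, had 66.8 and 210.0 CPM (cKO 2, cKO 5), against 140.3 and 209 CPM (control 1, control 6), and Zbp1, a sensor of left-handed nucleic acid, had 0.809 and 1.45 CPM (cKO 2, cKO 5), against 2.92 and 1.91 CPM (control 1, control 6). Of 56 further induced genes, 48 were tested and 0 passed (edgeR), with 39 negative and 9 positive and a median of −0.27, or 0.25 without cKO 2. B2m, the light chain of MHC class I, had 419 and 1481 CPM (cKO 2, cKO 5), against 914 and 1319 CPM (control 1, control 6), while Gbp5, with the smallest unadjusted p among the positive values, had 3.41 and 3.21 CPM (cKO 2, cKO 5), against 2.17 and 1.62 CPM (control 1, control 6). At the lower end Ifit1bl1, an Ifit1-like gene, had 1.16 and 0.414 CPM (cKO 2, cKO 5), against 2.98 and 3.71 CPM (control 1, control 6) and an unadjusted p of 0.0586 (edgeR).

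**Figure D4:**
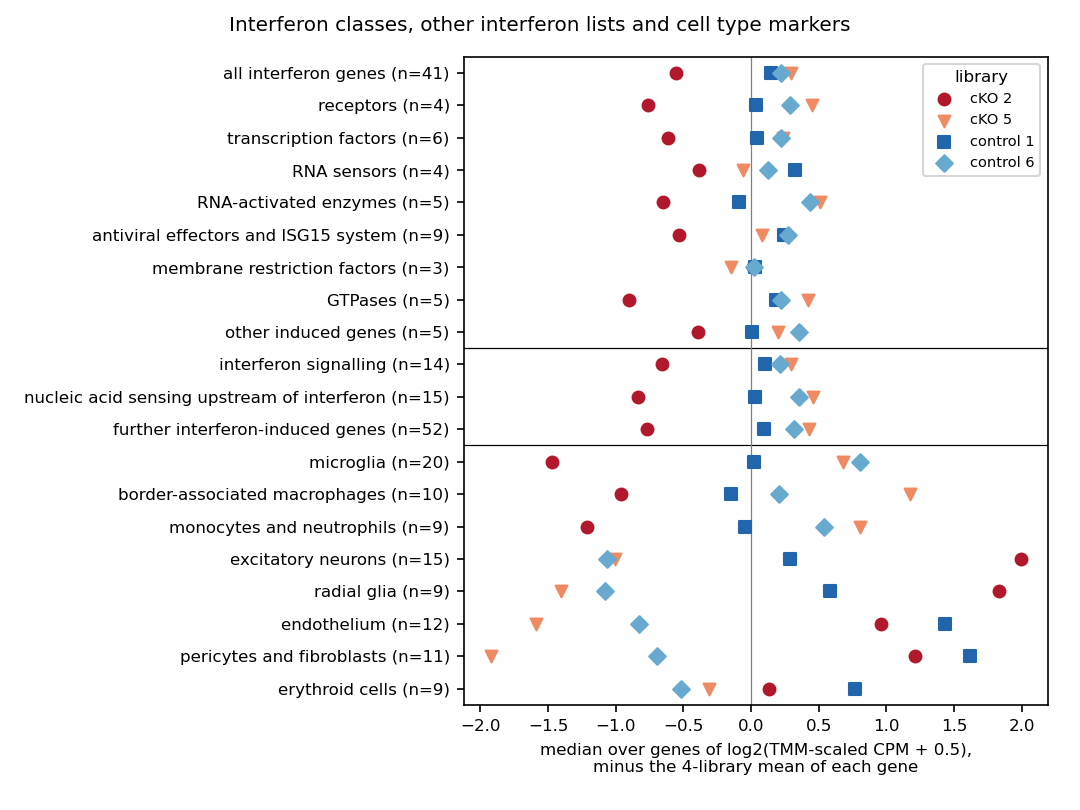
Median deviation of each gene group from its own mean over the 4 libraries, on the log2(TMM-scaled CPM + 0.5) scale; each symbol is 1 library, with interferon classes on top, other interferon lists in the middle and cell type markers below. For all 41 interferon genes cKO 2 is at −0.55 and the other 3 libraries are between 0.15 and 0.30; microglial markers spread from −1.47 to 0.81.

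The medians over the 41 genes were −0.55 in cKO 2 and 0.30 in cKO 5, against 0.15 in control 1 and 0.22 in control 6. Microglial markers were at −1.47 and 0.68 in the cKO libraries, against 0.02 and 0.81 in the controls. The GTPases were the interferon class lowest in cKO 2, at −0.91, and the membrane restriction factors were the class nearest to level, at 0.02 and −0.15 in the cKO libraries against 0.03 and 0.02 in the controls. Border-associated macrophage markers were at −0.96 and 1.17 in the cKO libraries, against −0.15 and 0.21 in the controls. Monocyte and neutrophil markers summed to 71.5 and 250.2 CPM in the cKO libraries, against 134 and 193 CPM in the controls. Their part in the interferon gene levels was not tested.

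The authors' deposited tables compare 1 cKO library with 1 control library each, and tables that share a library are not independent. In the authors' deposited table of cKO 2 against control 1, 0 of 41 interferon genes were called up (20.0% of all genes in it) and 10 down (24.4%, against 11.6%). For cKO 2 against control 6, the authors' deposited table called 4 of 40 up (10%, against 33.7%) and 13 down (32.5%, against 13.4%), with Isg20 not listed in it. For cKO 5 against control 1, the authors' deposited table called 2 of 41 up (4.88%, against 8.79%) and 3 down (7.32%, against 26.0%). For cKO 5 against control 6, it called 4 up (9.76%, against 9.23%) and 1 down (2.44%, against 11.4%). Side by side, the deposited log2 fold changes of Usp18 in the authors' deposited tables were −2.23 and −2.50 for cKO 2 against control 1 and control 6, and −0.67 and −0.95 for cKO 5. Those of Ifngr1 in the authors' deposited tables were −1.13 and −1.78 for cKO 2, and 0.53 and −0.12 for cKO 5. Oasl2 was called down in 1 of the 4 authors' deposited tables, cKO 5 against control 1, at −2.05.

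**Figure D5:**
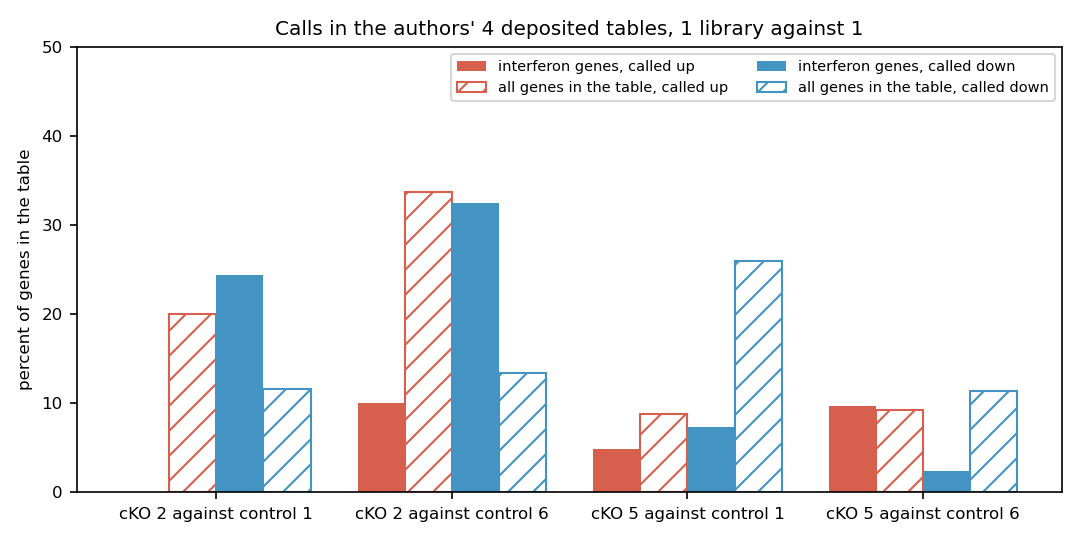
Percent of interferon genes (filled bars) and of all genes (hatched bars) called up or down in each of the 4 authors' deposited tables, each 1 library against 1. The down calls among interferon genes exceed those of all genes in the tables with cKO 2 (24.4% and 32.5%) and not in those with cKO 5 (7.32% and 2.44%).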

How the data were processed

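RNA was sequenced from 4 libraries of cortical microglia, 2 per genotype. Per the submitters' processing notes, Bowtie2 2.2.3, TopHat2 2.0.12 and HTSeq 0.6.0 were used with mm9. No source used here gives their roles or the strand setting. Gene positions in the tables matched GRCm38 (90.3% identical among 21922 genes), and that build is used for coordinates. The authors deposited 4 tables of raw counts per Ensembl gene for 1 cKO and 1 control library each, with normalized values that are CPM of a fixed library total (the authors set a count of 0 to 0.5 reads). The deposited fold (a ratio), its log2, and the p-values come from an unstated test. In every table a gene was called by the authors where its p-value was below 0.05 and its log2 fold change was 1 or more in size. Genes left out of a table had at most 4 reads over its pair of libraries.

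Counts were joined by gene ID (21981 genes, 18723 with a count in every library), CPM was recomputed from the counts and totals, and genotypes were compared with edgeR 4.0.16 in R 4.3.3 (quasi-likelihood test, TMM, filterByExpr with a minimum count of 10, Benjamini-Hochberg adjustment over all 15951 genes, two-sided, 2 residual degrees of freedom). Per-library deviations used a pseudocount of 0.5 CPM. Exon lengths came from GENCODE. The fit was tested on simulated data. Members and lists were chosen with earlier results of these data known. Fold changes were printed for the 2 genes per class with the highest mean CPM and the smallest unadjusted p in each direction, besides Usp18 and Ifit3. Alternatives used DESeq2 1.42.0, limma 3.58.1, other scalings, no filter, and each library left out.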

Additional observations from a re-analysis of the deposited data

How the results depend on the processing

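No interferon gene passed the threshold under any of the 9 alternatives (DESeq2 size factors, DESeq2, limma-voom, no low-count filter, microglial marker scaling, and each of the 4 libraries left out). No paired analysis was possible because the groups share no replicate number. Size factors, DESeq2, limma-voom and no filter reversed none of the 19 fold changes printed. Scaling on microglial markers raised the median of the tested genes to 0.47 (all genes 1.14) and reversed Ifngr1 (0.12), Ifngr2 (0.75), Irf9 (0.42), Irf3 (0.85), Trim25 (0.38), Ifih1 (0.73), Oasl2 (0.67), Eif2ak2 (0.24), Bst2 (0.47), Ifitm3 (0.70), Gbp3 (0.51), Igtp (0.57), Ifi35 (0.28) and Xaf1 (0.74). It moved the per-library median of the tested genes to 0.72 in cKO 2 and −0.35 in cKO 5, against −0.51 in control 6. With each library left out in turn, the median log2 fold change ran from −0.96 to 0.19, the genes whose groups do not overlap from 16 to 34 (42.6% to 75.7% of all genes), and the genes with an unadjusted p under 0.05 from 0 to 8 (8 without cKO 5, where 1784 of all genes had one, and 1 without control 1). The log2 fold change then ran from −1.76 to 0.26 for Ifngr1, from −0.67 to 0.30 for Ifngr2, from −1.19 to 0.50 for Irf9, from −1.57 to 0.29 for Eif2ak2, from −1.38 to 0.64 for Bst2 and from −0.92 to 0.12 for Gbp3. It ran from −1.16 to 0.47 for Igtp, from −1.34 to 0.14 for Ifi35, from −0.53 to 0.14 for Xaf1, from −1.35 to 0.11 for Oasl2, from −0.86 to 0.20 for Ifitm3, from −0.32 to 1.07 for Ifit2 and from −0.038 to 0.66 for Rsad2. Positive ends came without cKO 2 for most of these genes and without control 1 for Oasl2, Ifitm3, Ifit2 and Rsad2, and the cause was not tested. Signs held for Irf3 (−0.52 to −0.03), Trim25 (−0.81 to −0.32), Ifih1 (−0.47 to −0.21), Oas3 (0.55 to 1.23), Usp18 (−2.61 to −0.72) and Ifit3 (−2.55 to −0.63). The medians of the other interferon lists without cKO 2 and with microglial marker scaling were added after seeing the data. In these fits 1 library stands for a group and is assumed to vary like the others. Depth limits genes near 3 reads, and the spread between 2 libraries per genotype limits the rest.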
